A study of Mus musculus with 10 samples.

Results

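The cytosolic ribosomal protein genes encode the protein part of the ribosome. They were taken from the deposited table by symbol: Rpl or Rps followed by a number and at most a short suffix, with Rpsa, Rplp0, Rplp1 and Rplp2 added, and without rows named as pseudogenes (-ps) or S6 kinases. The rule gave 89 of the 55487 genes in the table. Of these, 46 encode large subunit proteins, 31 encode small subunit proteins, and 9 were listed as paralogs of such genes. The other 3 (Rpl32l, Rpl6l and Rps12l1) match the name rule and were in none of these lists. The 77 subunit genes were all above the filter on low values, a mean TPM of at least 1, and so were 5 of the other 12 genes. Of the 89 symbols, 6 are annotated as pseudogenes (Rps3a2, Rps3a3, Rps4l, Rps12l1, Rpl6l and Rpl32l).

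Ribosomal proteins are made in near equal numbers and assembled with ribosomal RNA in the nucleolus into the large and the small subunit. Their mRNAs are among the most abundant of any cell. They carry a 5′ terminal oligopyrimidine tract (TOP), a run of C and T bases at the start of the transcript through which mTOR signalling controls their translation together with that of elongation factors. In the colonic epithelium, ribosome production is highest in the dividing cells of the crypt base and lower in the differentiated cells above them.

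RNA of intestinal epithelial cells (IECs) from the colon was sequenced from 5 wild type (WT) mice and 5 RhoB-/- mice, one library per mouse, all on the C57BL/6J background. RhoB is a small GTPase, and the knockout was in the whole body, so that no effect can be assigned to the epithelium alone. The epithelial cells were released from the tissue with EDTA and DTT. The purchased WT mice and the knockout mice came from different suppliers according to the study's methods, so that source and genotype cannot be told apart, and the labels give neither the sex nor the exact age of the sequenced mice.

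The values are TPM (the transcript abundance unit of RSEM), which are scaled by transcript length and to a nearly fixed total per library. TPM keeps no depth, so the counting error is unknown. Between 20261 and 21344 genes had a TPM above 0. Rhob itself was at 170.52, 302.77, 364.92, 333.44 and 388.71 TPM in WT replicates 1 to 5 and at 0.09, 0.10, 0.35, 0.57 and 110.87 TPM in RhoB-/- replicates 1 to 5. The library labelled RhoB-/- replicate 5 thus held Rhob at a level below every WT library but far above the other RhoB-/- libraries. All 14 epithelial markers were above the filter, with sums of 30528 to 35548 TPM in WT and 30895 to 49766 TPM in RhoB-/-. The summed level of 22 immune markers was 33.5 to 50.5 TPM in WT and 90.3 to 112 TPM in RhoB-/-, and that of 16 stromal markers was 6.57 to 9.34 TPM in WT and 8.99 to 39.5 TPM in RhoB-/-. No immune or stromal marker was at 0 in every library. In bulk RNA, fewer cells of a type and less RNA per cell cannot be told apart.

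To show the starts at which these genes are transcribed, the 30 bases around the annotated start were taken for the 6 most abundant genes with a promoter entry in RefSeq (GRCm38.p6, most upstream start where several are annotated, 15 bases before the start base and the start base with the 14 that follow). Rplp1, Rpl23a and Rps29 are as abundant and are not shown. Capitals mark the unbroken run of pyrimidines that covers the start base.
Rpl41 (chr10:128549154-128549183, minus strand): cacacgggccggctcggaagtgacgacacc
Rps27 (chr3:90213634-90213663, minus strand): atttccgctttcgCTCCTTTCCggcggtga
Rpl13a (chr7:45128731-45128760, minus strand): gaaaccctgcgacaagacctcctcctttcc
Rps15 (chr10:80292416-80292445, plus strand): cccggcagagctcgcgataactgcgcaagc
Rps24 (chr14:24490663-24490692, plus strand): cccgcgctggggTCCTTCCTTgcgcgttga
Rps12 (chr10:23787195-23787224, minus strand): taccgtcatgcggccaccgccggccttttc

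Rps27 and Rps24 had a run of 9 pyrimidines over the annotated start, and the rest had a purine there. In the Rpl13a window a pyrimidine run begins shortly after that purine. Only a run over the annotated start base was counted, so a tract that begins at another base was missed. The shares below are therefore no count of TOP mRNAs. Of the 89 genes, 64 had an entry, and 19 of these (29.7%) had a run of at least 5 pyrimidines over the start, against 9.97% of the 27025 genes with an entry. The letters CCGGAAG, the core of an ETS factor motif, lay on either strand of 39.1% of the 300-base promoters of these genes and of 9.14% of all promoters. AAGATGG, a YY1 motif, was found in 15.6% against 6.46%, GGGCGG, an SP1 motif, in 59.4% against 35.9%, and TATAAA, the TATA box, in 12.5% against 14.2%. A match is a description of the letters and not of a bound factor. The median log2 fold change between genotypes was -0.37 for the 18 tested genes with a run of at least 5 and -0.40 for the 42 with a shorter run or none. This split follows the annotated start base and does not sort the genes by the presence of a TOP.

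Ribosomal protein mRNA made up 5.98% of the TPM in WT replicate 1 and 8.06%, 7.55%, 7.57% and 7.17% in WT replicates 2 to 5. In RhoB-/- replicates 1 to 5 the share was 4.92%, 4.41%, 8.19%, 5.59% and 5.08%. In summed TPM, the WT libraries averaged 71446 ± 7479 (SD, n = 5). The RhoB-/- libraries averaged 55857 ± 14873 (SD, n = 5), 78.2% of the WT mean. The groups overlapped because of a single library: RhoB-/- replicates 1, 2, 4 and 5 lay below every WT library, and RhoB-/- replicate 3 lay above every WT library. Without RhoB-/- replicate 3 the RhoB-/- mean was 49481 ± 4886 (SD, n = 4), 69.3% of WT.

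**Figure D1:**
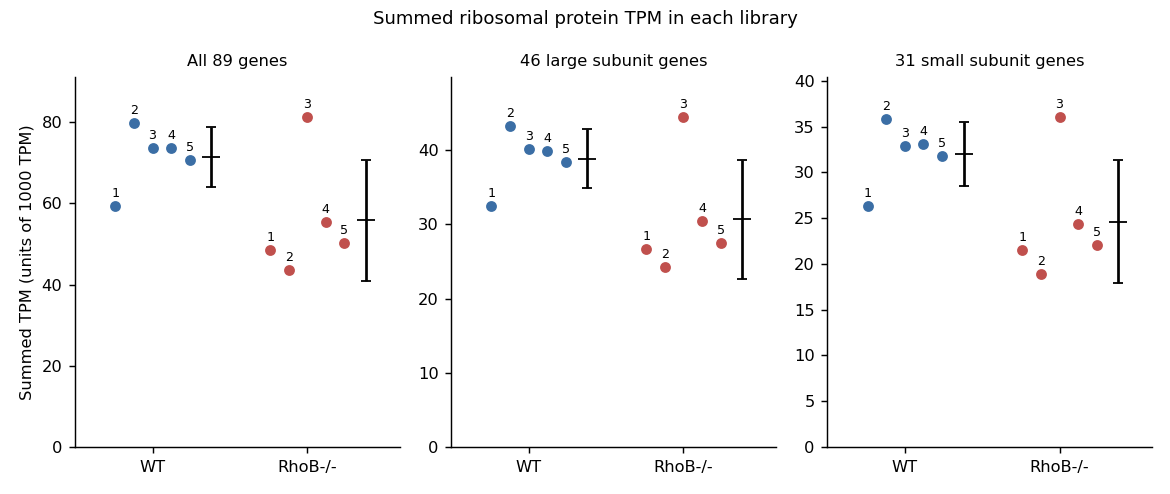
Summed TPM, in units of 1000 TPM, of all 89 genes, the 46 large subunit genes and the 31 small subunit genes in each library, with replicate numbers beside the points and the mean ± SD (n = 5) in black. In each panel 4 of the 5 RhoB-/- libraries sit below all WT libraries and RhoB-/- replicate 3 sits above them.

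Transcripts of the mitochondrial genome, which compete for the same fixed total, took 26.5%, 17.5%, 17.99%, 18.2% and 20.3% of the TPM in WT replicates 1 to 5. They took 19.4%, 22.4%, 10.3%, 17.1% and 12.1% in RhoB-/- replicates 1 to 5, so that RhoB-/- replicate 3 had the lowest share of all libraries and WT replicate 1 the highest. With these transcripts left out of the total, the ribosomal protein share was 8.14% to 9.77% in WT, 9.13% in RhoB-/- replicate 3 and 5.68% to 6.74% in the other 4 RhoB-/- libraries. RhoB-/- replicate 3 then lay within the WT range, not above it, and the other RhoB-/- libraries remained below it.

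Within a library the subunit genes spanned a wide range although their proteins are used in near equal numbers. The mean TPM over the 10 libraries, a measure per transcript length, had a median of 791 over the 77 subunit genes, and 65 of them lay between 300 and 1400 TPM. The most abundant were Rpl41 (2040 TPM), which encodes a peptide of the large subunit, Rplp1 (2014 TPM), an acidic protein of the P stalk, Rps27 (1771 TPM), Rpl23a (1612 TPM) and Rpl13a (1566 TPM). Rps15 (1512 TPM), Rps29 (1456 TPM), Rps24 (1353 TPM) and Rps12 (1314 TPM) were also among the 10 most abundant, which together took 25.1% of the summed ribosomal protein TPM. Neighbours among the genes named differed by less than their SD between libraries. The ranking also takes each row alone. Rps28 (931 TPM) fell outside the 10, yet Gm10443, a processed pseudogene identical to it over the aligned bases, held 1797 TPM. The place of Rps28 thus depends on how reads were split between the rows. The order was nearly fixed: the rank correlation of the 77 levels was at least 0.978 between any 2 of the 10 libraries, as a description over genes that share their libraries.

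**Figure D2:**
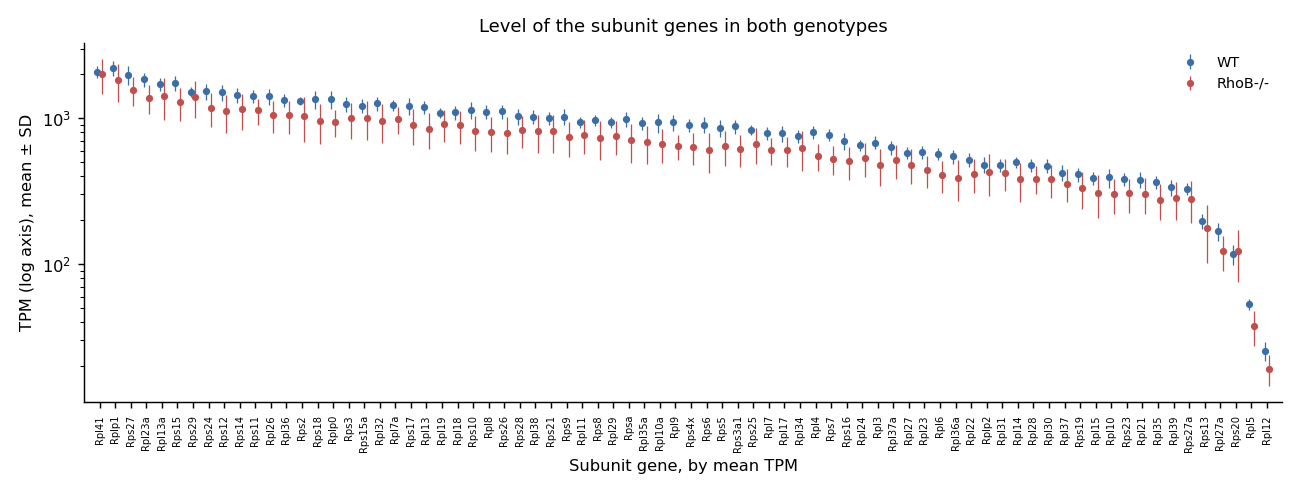
Mean TPM ± SD (n = 5 libraries per genotype) of 76 of the 77 subunit genes on a log axis, ordered by their mean over all libraries. Levels fall from 2040 TPM for Rpl41 to 22.4 TPM for Rpl12, and the RhoB-/- SD is larger than the WT SD for all 76 genes shown.

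The subunit genes under 200 TPM were Rpl12 (22.4 TPM), Rpl5 (45.2 TPM), Rps20 (120 TPM), Rpl27a (145 TPM) and Rps13 (188 TPM). For each of them, an annotated processed pseudogene with nearly the same sequence held more TPM than the gene itself. Gm10275, identical to Rpl12 over the aligned bases, was at 900.4 TPM, Gm15500, identical to Rpl5, at 676 TPM, and Gm7536, identical to Rpl27a, at 1142 TPM. Reads of such a pair cannot be assigned to either copy by sequence, so that these levels depend on how the reads were split. Of the 77 subunit genes, 71 had at least 1 processed pseudogene of at least 95% identity, 35 had one at a mean TPM of 1 or more, and for 10 the copies together exceeded the gene (Rpl12, Rpl27a, Rpl28, Rpl31, Rpl36a, Rpl5, Rps13, Rps20, Rps23 and Rps28). Adding the copies to their genes left 82 genes tested and gave 17 lower genes (13.5% of all genes in that fit) and 0 higher (7.76% of all genes), in place of the 13 and 0 described next.

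The genotypes were compared gene by gene with limma on log2(TPM + 1) over the 12870 genes of the table with a mean TPM of at least 1, with Benjamini-Hochberg adjustment over all of them. Of the 82 ribosomal protein genes tested, 13 were lower in RhoB-/- at an adjusted p below 0.05 (15.9%) and 0 were higher. Over all genes 13.5% were called lower and 7.73% higher, so that the share of ribosomal protein genes called lower was near the background. At an unadjusted p below 0.05, 43 of the 82 were lower and 0 higher, where 24.9% of all genes were lower and 11.9% higher. The study's own thresholds (p below 0.05 and a fold change above 1.5) were also applied to the limma fit, which is not the study's own test. Rps6 alone was then lower, where 8.33% of all genes were lower and 6.37% were higher.

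The direction was shared more widely than the calls. The log2 fold change was negative for 81 of the 82 genes (65.4% of all tested genes), from -0.61 for Rps6 to 0.02 for Rps20, with a median of -0.38, where the median of all tested genes was -0.13. The median was -0.37 over the 46 large subunit genes, of which 7 were lower, and -0.40 over the 31 small subunit genes, of which 5 were lower. The remaining call was the paralog Rps4l, 1 of the 5 other genes tested. Each of these fold changes is a difference of mean log2(TPM + 1), RhoB-/- minus WT.

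Among the small subunit genes called lower, Rps6 (chr4:86854660-86857412) encodes the protein phosphorylated by the S6 kinases downstream of mTOR. It was at 728, 1036, 910, 967 and 883 TPM in WT replicates 1 to 5 and at 526, 450.5, 903, 655 and 497 TPM in RhoB-/- replicates 1 to 5. Its log2 fold change was -0.61 (SE 0.18, adjusted p = 0.0345). RhoB-/- replicate 3 lay within the WT range and the other 4 RhoB-/- libraries below it.

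Rps7 (chr12:28630854-28635953), which also binds the p53 regulator Mdm2, was at 651, 851, 789, 776 and 763 TPM in WT and at 474, 424, 729, 539 and 466 TPM in RhoB-/- (log2 fold change -0.56, SE 0.15, adjusted p = 0.0215). The other called small subunit genes were Rps3a1 (-0.54, adjusted p = 0.0334), Rps4x, the X-linked S4 gene (-0.53, adjusted p = 0.0351), and Rps26, which lies by the mRNA exit channel (-0.52, adjusted p = 0.0494). In each of the 5, RhoB-/- replicate 3 lay above the other RhoB-/- libraries.

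On the large subunit, Rpl4 (chr9:64173375-64178666), whose protein lines the peptide exit tunnel, was at 677, 900.4, 790, 821 and 802 TPM in WT and at 490, 464, 753, 550 and 511 TPM in RhoB-/-. Its log2 fold change was -0.54 (SE 0.14, adjusted p = 0.0205). Rpl3, which reaches towards the peptidyl transferase centre, fell by 0.54 on the log2 scale (adjusted p = 0.0379). Rpl9 (-0.54, adjusted p = 0.0243), Rpl13 (-0.52, adjusted p = 0.0448) and Rpl6 (-0.51, adjusted p = 0.0388) were also lower. Rpl5, which carries the 5S ribosomal RNA into the ribosome and binds Mdm2, was at 45.4 to 57.4 TPM in WT and at 32.3, 28.8, 55.0, 37.5 and 34.1 TPM in RhoB-/- (-0.52, adjusted p = 0.0360), and -0.61 (adjusted p = 0.0212) once its identical copy was added.

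The P stalk is the arm of the large subunit that recruits elongation factors, and 1 of its 4 genes was called. Rplp0, its base (chr5:115559467-115563727), was at 1098, 1563, 1237, 1454 and 1378 TPM in WT and at 887, 794, 1279, 900 and 843 TPM in RhoB-/-, a log2 fold change of -0.53 (SE 0.15, adjusted p = 0.0294). Neither acidic stalk protein passed, with differences of -0.31 for Rplp1 (adjusted p = 0.224) and -0.20 for Rplp2 (adjusted p = 0.457) on the log2 scale. For Rpl12, which anchors the stalk, the value was -0.41 (adjusted p = 0.0920), and with its copies -0.66 (adjusted p = 0.0189).

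The pattern over libraries was the same for nearly every gene. Measured from the WT mean in log2(TPM + 1), the median gene lay at -0.55, -0.73, 0.18, -0.33 and -0.48 in RhoB-/- replicates 1 to 5. The WT medians ran from -0.25 in replicate 1 to 0.16 in replicate 2. RhoB-/- replicate 3 was the highest RhoB-/- library for 81 of the 82 genes, against 43.6% of all tested genes, and it was above the highest WT library for 42 (30.5% of all genes). RhoB-/- replicate 2 was the lowest of all 10 libraries for 76 genes (37.9% of all genes), and WT replicate 1 was the lowest WT library for 76 (43.8% of all genes). The exception was Rps4l, annotated as a pseudogene, at 37.9 to 66.2 TPM in WT and at 29.3, 30.6, 33.7, 46.6 and 37.7 TPM in RhoB-/- (log2 fold change -0.50, adjusted p = 0.0475), for which RhoB-/- replicate 3 lay below every WT library.

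**Figure D3:**
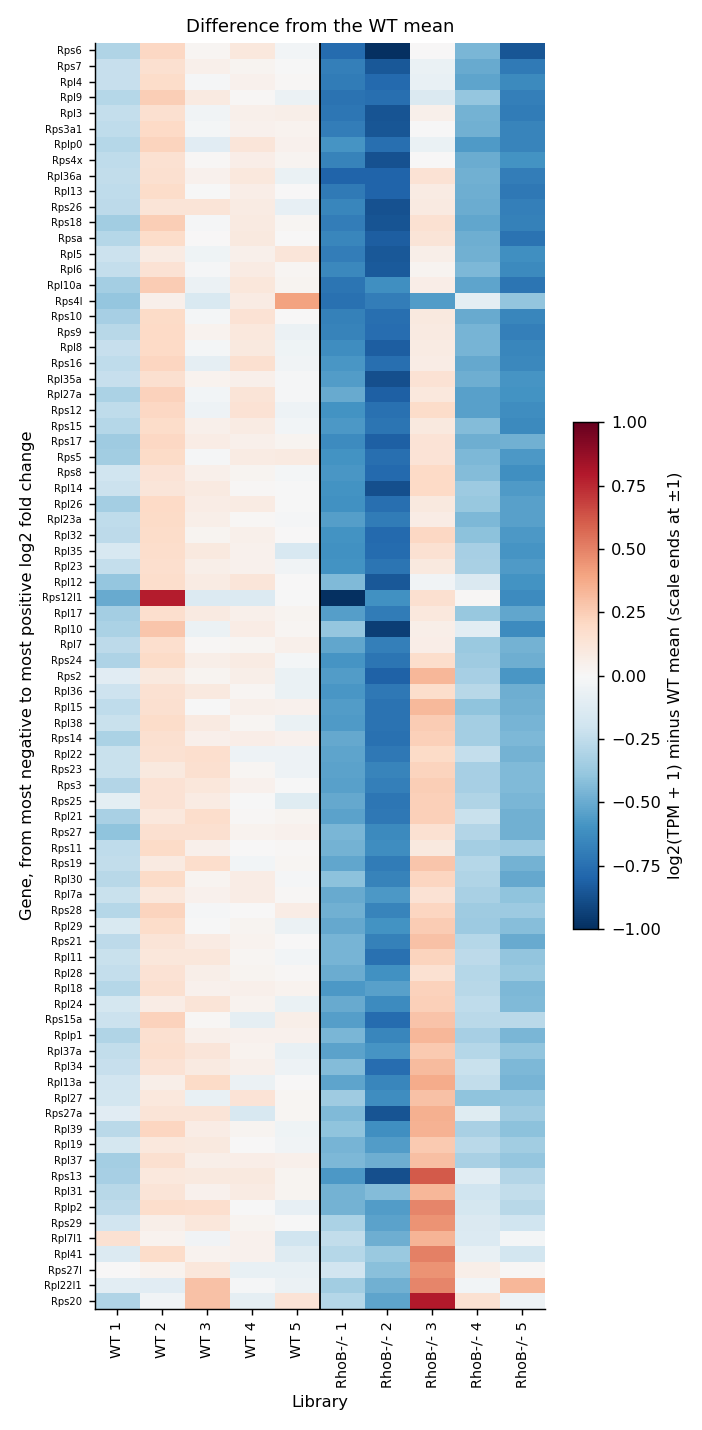
Each row is one of 81 of the 82 tested genes and each column a library, with the colour giving log2(TPM + 1) minus the WT mean of that gene on a scale that ends at ±1. RhoB-/- replicates 1, 2, 4 and 5 are blue for nearly all genes and RhoB-/- replicate 3 is pale or red for most, with Rps4l the bluest gene in that column.

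No gene had all 5 RhoB-/- libraries below all 5 WT libraries, a separation that 8.55% of all tested genes showed (5.97% the other way). With RhoB-/- replicate 3 set aside, 62 of 82 genes (75.6%) had the other 4 RhoB-/- libraries below all WT libraries, against 19.8% of all genes, and 0 had them all above (6.62% of all genes). In the same 9 libraries limma called 73 of 82 genes lower (89% of them, with 22.8% of all genes called lower) and 0 higher (8.01% of all genes), with a median log2 fold change of -0.51. At the study's thresholds 29 were lower in these libraries (11.3% of all genes) and 0 higher (6.51% of all genes). The genes not called were Rps4l, Rps12l1, Rps13, Rps29, Rpl7l1, Rpl41, Rps27l, Rpl22l1 and Rps20. This library was singled out after its values were seen, so that the counts without it describe the other 9 libraries and are not a separate test of genotype.

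The count of 13 moved with every library that was left out. It was 28, 0, 4, 0 and 3 without WT replicates 1 to 5 in turn, and 0, 3, 73, 4 and 0 without RhoB-/- replicates 1 to 5 in turn. Of all genes, 13.7%, 7.54%, 12.8%, 6.68% and 9.52% were lower in the first 5 of these fits and 7.42%, 9.19%, 22.8%, 9.32% and 8.48% in the other 5. The share of ribosomal protein genes called lower was above that of all genes without WT replicate 1 or RhoB-/- replicate 3 and below it in the other 8 fits. At an unadjusted p below 0.05 the count was 27 to 76 over the same fits, where 19.2% to 31.8% of all genes were lower. None of the 82 genes was higher at either threshold in these 10 fits. Of all genes, 5.56% to 9% were higher at an adjusted p below 0.05 and 9.69% to 14.5% at an unadjusted one. The median log2 fold change of the 82 genes stayed between -0.51 and -0.28. Without RhoB-/- replicate 5, the RhoB-/- library with by far the highest Rhob level, limma called 0 lower and the median was -0.35. At an unadjusted p below 0.05 it called 30 lower, where 22.6% of all genes were lower.

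**Figure D4:**
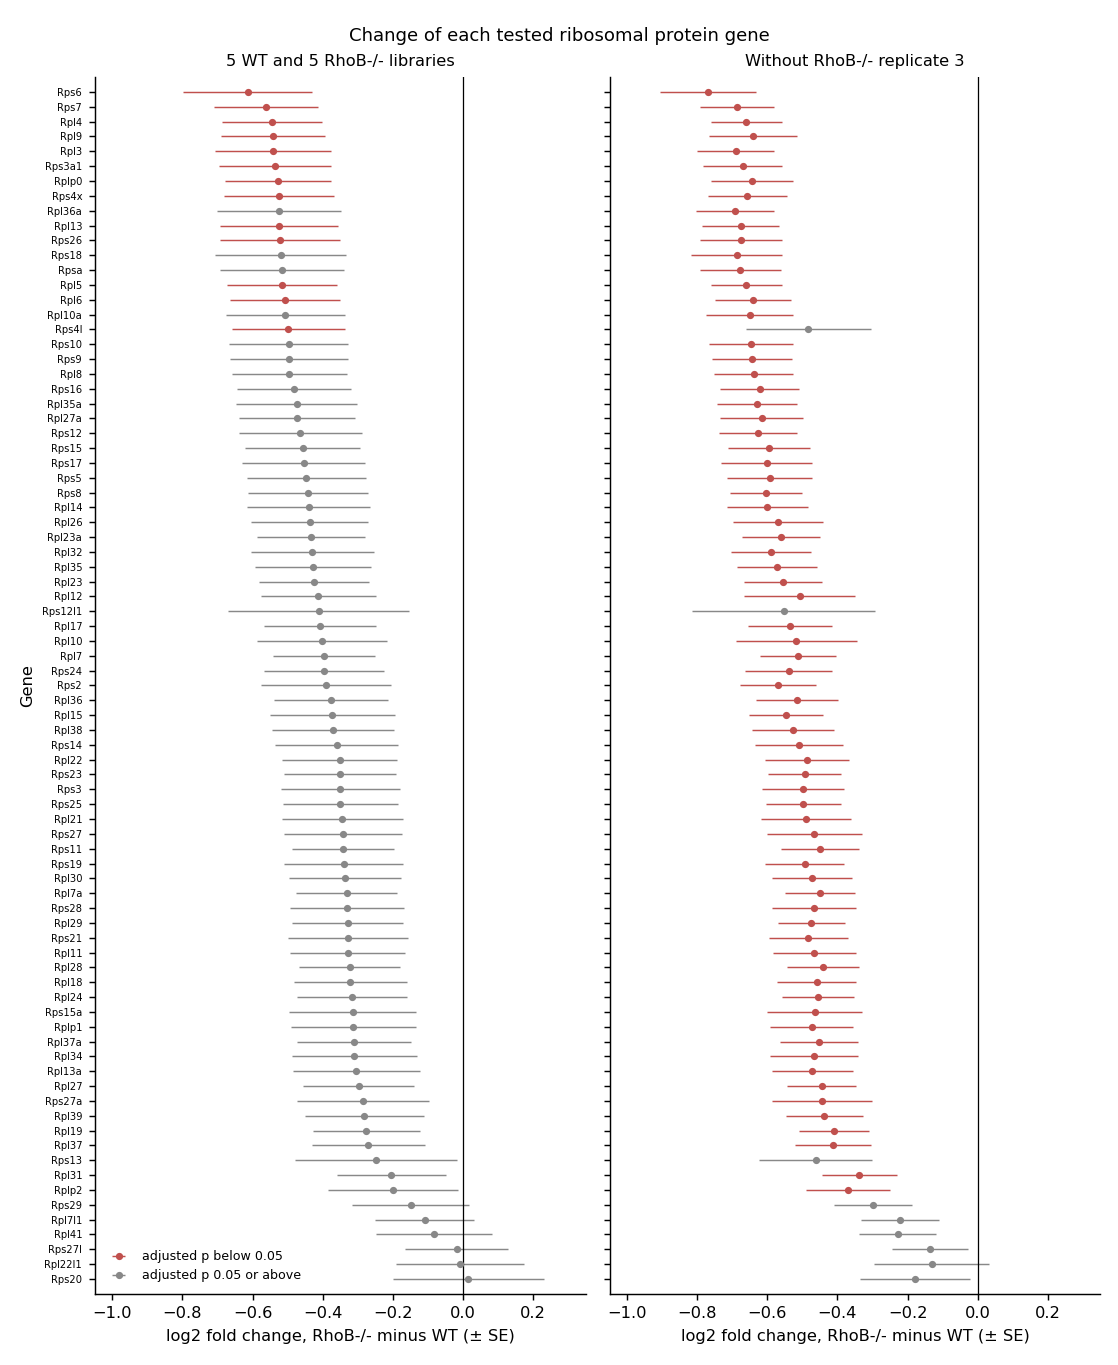
Log2 fold change ± SE (RhoB-/- minus WT) of 81 of the 82 tested genes with all 10 libraries (left) and without RhoB-/- replicate 3 (right), in red where the adjusted p was below 0.05. On the left 13 genes are red and on the right 72, and 80 of the 81 points on the left lie below 0.

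The genes with the smallest differences were found at the other end of the order. Rpl41 was at 1878, 2355, 2124, 2134 and 1890 TPM in WT and at 1696, 1598, 2936, 1966 and 1823 TPM in RhoB-/- (log2 fold change -0.08, SE 0.17, adjusted p = 0.748). Unlike Rps6, it had RhoB-/- replicate 3 far above every WT library and RhoB-/- replicate 4 within the WT range.

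Rps27l, a paralog of Rps27 that p53 activates, was at 306, 313, 330.01, 289 and 290 TPM in WT and at 267, 228, 418, 318 and 309 TPM in RhoB-/- (log2 fold change -0.02, adjusted p = 0.943). Its parent Rps27 was at 1480 to 2183 TPM in WT and at 1424, 1257, 2174, 1591 and 1401 TPM in RhoB-/- (log2 fold change -0.34, adjusted p = 0.160). Rpl22l1, the paralog of Rpl22, was at 122 to 162 TPM in WT and at 104, 94.3, 186, 130 and 167 TPM in RhoB-/- (log2 fold change -0.01, adjusted p = 0.981). Rpl7l1, a paralog of Rpl7 that acts in assembly of the large subunit, differed by -0.11 on the log2 scale (adjusted p = 0.601).

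Rps20, of the small subunit head, was at 93.6, 113, 142, 109 and 127 TPM in WT and at 94.7, 80.1, 201, 128 and 111 TPM in RhoB-/- (log2 fold change 0.02, SE 0.22, adjusted p = 0.967). It turned to -0.20 (adjusted p = 0.515) once its copy Gm4332 was added. The other genes of small change were Rps29 (-0.15), Rpl31 (-0.20) and Rps13 (-0.25), with adjusted p-values from 0.366 to 0.542.

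To compare the genes with one another, every library was centred on the mean log2 value of the 82 genes, so that a value of 0 stands for a gene that moved with the group. In that scale 4 genes were higher in RhoB-/- than the group (23.9% of all genes were) and Rps6 alone was lower (1.85% of all genes). The 4 were Rpl41 (0.30, adjusted p = 0.0119), Rps27l (0.36, adjusted p = 0.0187), Rps20 (0.39, adjusted p = 0.0286) and Rps29 (0.23, adjusted p = 0.0354), and Rps6 was at -0.24 (adjusted p = 0.0421). The adjustment ran over all 12870 genes, of which 22.4% were negative on this scale, and not over the 82 alone. The shift of the other genes by the centring makes a pass easier. Unadjusted p by limma was 0.0015, 0.0031, 0.0056, 0.0077 and 0.00998 in the same order. Without RhoB-/- replicate 3, the adjusted p of these 5 was 0.0055, 0.0063, 0.0233, 0.0173 and 0.0134. That fit uses the same libraries and gives no separate support. Rpl22l1 (0.39, adjusted p = 0.0459) and Rpl31 (0.18, adjusted p = 0.0411) were then higher as well, and Rps7, Rpl3 and Rpl36a lower, which made 6 higher (48% of all genes) and 4 lower (2.26% of all genes). Rps20, Rpl31, Rpl36a and Rps6 each have a nearly identical copy, at 244, 833, 612 and 263.7 TPM, which limits these values. Across the 82 genes, the log2 fold change had a Spearman correlation of -0.30 with transcript length (0.00 over the 12775 other genes with a length), a description over genes that share their libraries.

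Of the 7 genes below the filter, Rpl10l and Rpl6l were listed at 0 in every library. Rpl32l, Rpl39l, Rpl3l, Rps3a2 and Rps3a3 stayed under 1 TPM in all libraries, and none differed between genotypes by the exact permutation test (two-sided, p = 0.310 for Rps3a3 and 1.0 for the others, smallest p possible 0.00794).

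Of 5 genes for ribosomal proteins whose names fall outside the rule, 1 was lower and 0 higher. Rack1, a scaffold bound to the small subunit, was at 530, 792, 611, 742 and 713 TPM in WT and at 388, 379, 663, 454 and 401 TPM in RhoB-/- (log2 fold change -0.59, adjusted p = 0.0315). Rpl36al, a paralog of Rpl36a (-0.21, adjusted p = 0.397), Rps27rt (-0.64, SE 0.81, adjusted p = 0.594) and Fau, a fusion of a ubiquitin-like protein and a small subunit protein (-0.02, adjusted p = 0.955), did not pass.

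The other genes of the translation machinery were compared from fixed lists, with 13.5% lower and 7.73% higher as the background. Of 20 elongation factors and other TOP mRNAs, 9 were lower and 0 higher (median log2 fold change -0.40), among them Eif4b, a cofactor of the eIF4A helicase (-0.48, adjusted p = 0.0173), and Hnrnpa1, an RNA-binding protein (-0.56, adjusted p = 0.0244). Of 64 ribosome biogenesis genes, 18 were lower and 0 higher (median -0.34). Utp20, of the small subunit processome, was at 37.9 to 46.7 TPM in WT and 25.6 to 27.9 TPM in RhoB-/- (-0.61, adjusted p = 0.000983), with no overlap between the groups and with RhoB-/- replicate 3 among the low libraries.

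Las1l, an endonuclease of large subunit ribosomal RNA processing, was also lower (-0.56, adjusted p = 0.00784). Of 8 host genes of small nucleolar RNAs with TOP starts, Snhg1 was lower (-0.51, adjusted p = 0.0493), and Gas5 was at -0.55 (adjusted p = 0.0516). Of 28 initiation factors 4 were lower and 1 higher (median -0.16). Eif2b1, a subunit of the eIF2 exchange factor, fell by 0.55 on the log2 scale (adjusted p = 0.0165), and so did Eif3j1 by 0.32 (adjusted p = 0.0352). Eif2s2, the beta subunit of eIF2, went the other way: it was at 89.96 to 120 TPM in WT and 175 to 222 TPM in RhoB-/- (0.84, adjusted p = 0.000357).

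The mitochondrial ribosomal proteins, which build a separate ribosome, had 2 of 79 genes lower, Mrpl19 (-0.61, adjusted p = 0.00635) and Mrps9 (-0.42, adjusted p = 0.0483), with a median of -0.18. Without RhoB-/- replicate 3 the counts of lower genes were 17 of 20 elongation factors and TOP mRNAs, 38 of 64 biogenesis genes, 6 of 8 host genes, 11 of 28 initiation factors and 36 of 79 mitochondrial ribosomal proteins, against 22.8% of all genes.

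Markers of dividing cells were also highest in RhoB-/- replicate 3 and low in the other RhoB-/- libraries. The WT libraries did not share this likeness. WT replicate 1, the lowest WT library for the ribosomal protein genes (83.2% of the WT mean), was at 102% for the proliferation markers. WT replicate 5 was at 99.1% and 85.1%. The summed TPM of 24 proliferation markers was 745, 748, 659, 873 and 620 in WT replicates 1 to 5 and 460, 335, 852, 530 and 419 in RhoB-/- replicates 1 to 5. RhoB-/- replicate 3 was within the WT range and the other 4 lay below every WT library, whereas the ribosomal protein sum of RhoB-/- replicate 3 lay above the WT range. Of the 24 markers, 9 were lower and 0 higher (median log2 fold change -0.55). The background for this and the other marker lists was 13.5% of all genes lower and 7.73% higher. Without RhoB-/- replicate 3, 23 of the 24 were lower, against 22.8% of all genes. The immune markers did not share this pattern, with RhoB-/- replicate 3 at 112 TPM beside 90.3 to 112 TPM in the other RhoB-/- libraries (0 of 11 tested markers lower, 8 higher). Of the 14 epithelial markers 0 were lower and 3 higher, and of the 3 stromal markers tested 0 were lower and 1 higher. The part of the proliferation markers, the mitochondrial share or the immune markers in the ribosomal protein result was not tested.

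**Figure D5:**
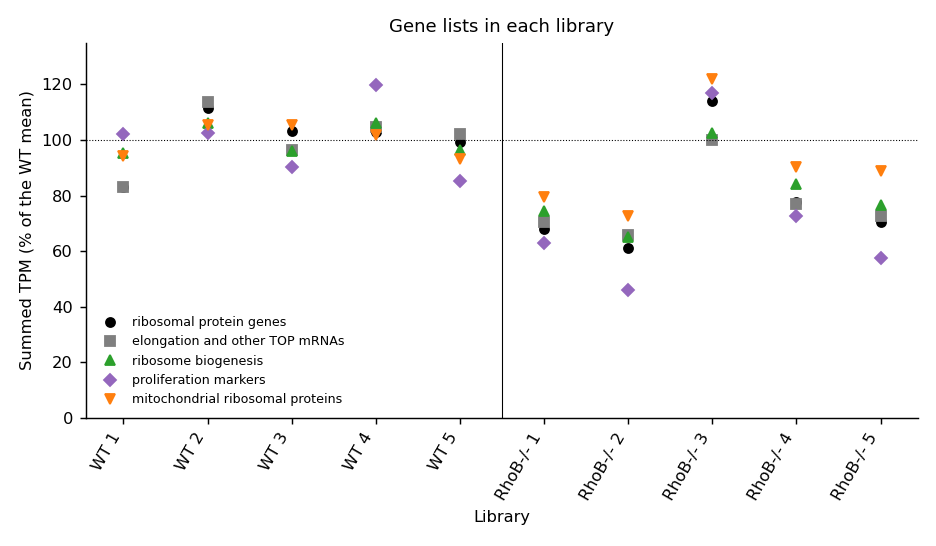
Summed TPM of 5 gene lists in each library as a percentage of the WT mean (dotted line at 100). In RhoB-/- replicates 1, 2, 4 and 5 the ribosomal protein genes are at 68.1%, 61.0%, 77.6% and 70.3%. The proliferation markers are at 63.1%, 45.95%, 72.7% and 57.6% in the same libraries. In RhoB-/- replicate 3 the values are 114% and 117%, and in WT replicate 1 they are 83.2% and 102%.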

How the data were processed

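The libraries came from the IECs of 5 WT and 5 RhoB-/- mice, grouped and numbered as in the labels. The authors deposited TPM values from RSEM, after paired-end sequencing (150 bp), trimming (SeqPrep, Sickle), alignment (HISAT2) and assembly (StringTie). The labels name GRCm38.p6, and versions are not given in the sources used here. Depth is unknown. The deposited TPM values were compared with limma 3.58.1 in R 4.3.3 (lmFit, eBayes with trend) on log2(TPM + 1), where the mean TPM was 1 or more. The procedure was checked on simulated data with independent noise in each gene. That check does not cover shifts that many genes share within a library. Genes below the filter were compared by exact permutation. Copies were found with BLAST+ 2.17.0 (at least 95% identity over 200 bases and 80% of the copy). Positions are from GENCODE M21 on GRCm38.

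The members and lists were chosen with earlier results of these data known. Members named were the 10 most abundant, the 10 largest changes in each direction, the paralogs, the P stalk and every gene called, and outside them the 2 smallest p-values per direction in each list. Some genes that meet this rule are not reported here. Other genes named were chosen after their values were seen. Alternatives were another pseudocount, other filters, quantile normalization, centring, leaving out mitochondrial genes, a replicate block, no trend and each library left out, and, chosen after seeing the data, summing copies and centring without RhoB-/- replicate 3. p-values measure the spread between the mice. Count tests were not run.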

Additional observations from a re-analysis of the deposited data

Results flagged for a closer look

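Values far from the others of their group were looked for in 120 groups of 5 libraries (60 genes or summed levels in each genotype) by the gap to the nearest value over the range of the group, and 15 stood apart, where chance gives about 1 in 20 groups. The genes share their libraries, so these are not independent. In 10 of them RhoB-/- replicate 3 lay far above the other RhoB-/- libraries: Rpl41 (2936 TPM), Rplp1 (2760 TPM), Rpl23a (1932 TPM), Rps12 (1707 TPM), Rplp0 (1279 TPM), Rpl13 (1258 TPM), Rplp2 (670 TPM), Rack1 (663 TPM), Rpl36a (602 TPM) and Rpl31 (597 TPM). In 3 of them WT replicate 1 lay far below the other WT libraries: Rps27 (1480 TPM), Rpl31 (391 TPM) and Rps13 (157 TPM). Rpl22l1 in WT replicate 3 (162 TPM) lay far above the other WT libraries. Rhob in RhoB-/- replicate 5 (110.87 TPM) lay far above the other RhoB-/- libraries.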

How the results depend on the processing

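The 13 lower ribosomal protein genes (13.5% of all genes) became 1 without a filter (4.26% of all genes), 69 with quantile normalization (15.3%), 23 with libraries centred on their median deviation (12.8%, with 15.6% higher), 64 without mitochondrially encoded genes (28.4%), 1 at the study's thresholds (8.33%), and 0 to 73 with a library left out. Centred on the mean of the members, 1 was lower and 4 higher (4 and 6 without RhoB-/- replicate 3), and the median of -0.38 became -0.00464 (0.00729), by construction. In the other translation lists, 35 lower genes (13.5% of all genes) became 12 without a filter (4.26%), 72 with quantile normalization (15.3%) and 105 without mitochondrially encoded genes (28.4%). With a library left out they became 6 to 111, where 6.68% to 22.8% of all genes were lower. In these lists 1 higher gene (7.73% of all genes) became 3 with median centring (15.6%). The cause was not tested. Replicate numbers are shared by both genotypes but mark different mice. The correlation of deviations within a number was -0.0874 to 0.0720 and 1 of 5 WT libraries correlated best with its own number. No pairing by number was thus detected, and so few libraries cannot exclude one. With the replicate block 5 ribosomal protein genes (8.23% of all genes) and 12 genes of the other lists were lower. The median stayed negative under every other alternative. The summed RhoB-/- level was recomputed only without mitochondrially encoded genes, for the subunit genes alone and with each library left out. It stayed below WT in all of these (78.2%, range 69.3% to 82.5%).

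Several genes changed sign. This held for Btf3 (-0.0608), Fau (0.0360) and Rps20 (-0.0635) with quantile normalization, for Fau (0.10), Rpl22l1 (0.11), Rpl41 (0.0329), Rpl7l1 (0.00529) and Rps27l (0.10) with median centring, for Btf3 (-0.0280), Rps20 (-0.0610) and Snhg3 (-0.0134) without mitochondrially encoded genes, and for Rps20 (-0.20) with copies. With a library left out, Btf3 ran from -0.0586 to 0.13, Rps20 from -0.18 to 0.15, Snhg3 from -0.0799 to 0.19, Fau from -0.13 to 0.0757, Rpl22l1 from -0.13 to 0.11, Rps27l from -0.14 to 0.0825 and Rps27rt from -0.97 to 0.22. Centring on the mean of the members shifts every gene, so genes with a less negative value than the mean turn positive. In that scale, and then also without RhoB-/- replicate 3, the values were Rpl13a 0.0747 and 0.0482, Rpl22l1 0.37 and 0.39, Rpl31 0.17 and 0.18, Rpl41 0.30 and 0.29, Rpl7l1 0.27 and 0.30, Rplp1 0.0660 and 0.0472, Rplp2 0.18 and 0.15, Rps13 0.13 and 0.0580, Rps27 0.0363 and 0.0541, Rps27l 0.36 and 0.385, and Rps29 0.23 and 0.22, with Rpl12 at 0.0124 and Rps4l at 0.0370 in the second only.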

Other observations

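A few rows outside the name rule held values of note. Gm42845, annotated as a pseudogene, was at 0 TPM in 8 libraries and at 255 and 518 TPM in RhoB-/- replicates 2 and 3. Rpl14-ps1, a pseudogene of Rpl14, was at 119 to 192 TPM in WT and at 55.6 to 83.5 TPM in RhoB-/-, with no overlap and with RhoB-/- replicate 3 the lowest of the 10 libraries, the reverse of its place for Rpl14. Of the 319 rows named as ribosomal protein pseudogenes (-ps), 29 had a mean TPM of at least 1. These rows were chosen after their values were seen.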
